A study of Mus musculus with 28 samples.

Results

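Tumors were compared with non-tumor liver of the same animals in 4 control mice on the alcohol diet. Members were chosen by their titles: the tumor library and the non-tumor library of each of the animals titled F_F_503, F_F_523, F_F_581 and F_F_595 in the FF genotype on alcohol, 8 of the 28 liver RNA-seq libraries of the series. All mice of the series were C57BL/6 and received diethylnitrosamine (DEN, a liver carcinogen) at 25 mg/kg by intraperitoneal injection at 2 weeks of age, followed by 18 weeks of an isocaloric liquid ethanol diet or chow. The ethanol groups also carry the treatment label HFD_alcohol. FF mice have both Il17ra alleles flanked by loxP sites and no deletion (IL17RA_floxflox), and dHEP mice lack Il17ra in hepatocytes; Il17ra encodes a receptor chain for interleukin 17A. Every group therefore shares the DEN injection, and the non-tumor libraries are DEN-treated, alcohol-fed liver rather than untreated liver. Sex and the number of nodules per tumor library are not given in the sources used here. The tumors of animals F_F_503 and F_F_523 have titles ending in T1, and those of F_F_581 and F_F_595 in T.

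Hepatocytes divide their work along the liver lobule. Cells near the central vein, under Wnt signalling, make glutamine, bile acids and most drug-metabolising cytochromes P450, and cells near the portal vein run the urea cycle and amino acid breakdown. Tumors that follow DEN in mice often carry activating mutations in the Ras and MAP kinase pathway, and liver tumors commonly switch on oncofetal genes such as glypican 3, regain cell division and lose parts of the mature hepatocyte programme. Kupffer cells are the resident macrophages of the liver, and stellate cells are its main source of scar matrix.

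Expression was given as CPM, the share of a library's reads that a gene takes, scaled to a total of 1000000. Values below are in the order of animals F_F_503, F_F_523, F_F_581 and F_F_595, and every difference is tumor minus non-tumor within an animal on the log2(CPM + 1) scale with its standard error (SE), from limma with the animal as a block. A gene was called at a Benjamini-Hochberg adjusted p below 0.05 over all 12708 tested genes, which are those that reached 1 CPM in 3 or more of the 8 libraries. Because 1 is added before the logarithm, differences of genes at a few CPM are understated. With the most frequent low value of a library taken as 1 read, 1 CPM stood for about 11.1 to 15.6 reads in these libraries, which sets their depth. Nothing in the labels says how the RNA of each tumor was dissected. The p-values cover the spread between these 4 animals, as moderated by limma with a trend in variance over all tested genes.

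Tumor and non-tumor liver were far apart. Of the tested genes, 4476 (35.2%) were called: 2490 (19.6%) were higher in tumors and 1986 (15.6%) were lower. A fitted change of 2-fold or more was present in 810 of the called rises and 718 of the called falls, and the median difference over all tested genes was 0.05. The first principal component held 61.2% of the variance and set the tumors, at 34.4 to 56.0, apart from the non-tumor libraries, at -54.7 to -26.2. All 4 tumors lay above all 4 non-tumor libraries for 2073 genes (16.3%) and below them for 1650 (13%).

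The non-tumor libraries were not alike. Gpc3, the cell-surface proteoglycan glypican 3, was at 3.80, 25.8, 17.6 and 1.09 CPM in non-tumor liver, and Afp, the fetal liver protein alpha-fetoprotein, at 8.82, 213, 159.2 and 1.47 CPM. Both were thus many times higher in the non-tumor libraries of animals F_F_523 and F_F_581 than in those of F_F_503 and F_F_595. Whether those pieces of tissue held tumor cells was not tested. Without these 2 libraries, and then without pairing, 1771 genes were higher and 891 lower. They were singled out for such tumor markers in earlier results of these data, so values without them are a description and no independent support for a rise of those markers. Without both libraries of animal F_F_503, 1547 genes were higher. Where that choice moves a group's count by more than 1.5 times, the count without them is given beside the group. In bulk tissue a lower level of a gene can come from fewer cells of a type or from less RNA per cell, and these cannot be told apart.

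The oncofetal and tumor-marker genes rose. Of 20 listed, 15 were tested; 10 were higher, where 19.6% of all tested genes were, none was lower, where 15.6% were, and the median difference was 1.73 against 0.05 for all genes. Gpc3 (chrX:52272426-52613950, GRCm38) had 230.3, 172, 94.4 and 181 CPM in tumors. Every tumor was above every non-tumor library, and it had the largest rise of the comparison (log2 difference 4.27 ± 0.67, adjusted p = 0.0029). Golm1, a Golgi membrane protein that is released into serum in liver cancer, was at 97.3, 139, 113 and 121 CPM in tumors and 7.22, 21.4, 25.2 and 5.44 CPM in non-tumor liver. The groups did not overlap (log2 difference 3.15 ± 0.32, adjusted p = 0.00064). Spink1, a secreted trypsin inhibitor, stood at 18.1, 18.98, 54.9 and 29.9 CPM against 0.304, 1.20, 5.74 and 0 CPM. It was near or below 1 CPM in 3 non-tumor libraries (log2 difference 3.76 ± 0.31, adjusted p = 0.00037). Prom1, the stem cell surface protein CD133 (3.15 ± 0.49), Scd2, a fatty acid desaturase of growing and fetal tissue (2.86 ± 0.41), and Cd24a, a surface glycoprotein of progenitor cells (1.73 ± 0.19), were also called, at adjusted p = 0.0028, 0.0021 and 0.00081.

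Afp itself was not called. It was at 221, 133, 143 and 502 CPM in tumors, so the tumors of F_F_523 and F_F_581 lay below their own non-tumor libraries while those of F_F_503 and F_F_595 lay far above (log2 difference 2.83 ± 1.28, adjusted p = 0.13; exact sign-flip permutation test, 2-sided, p = 0.5, where 4 pairs allow no p below 0.125). Without the non-tumor libraries of F_F_523 and F_F_581 the Afp difference was 5.45 with an adjusted p of 0.0015, a value that follows in part from leaving out the 2 libraries highest in Afp among the non-tumor 4. Gpc3 was higher in the tumor of each of the 4 animals, but by 2.69 and 2.36 in F_F_523 and F_F_581 against 5.59 and 6.44 in F_F_503 and F_F_595.

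**Figure D1:**
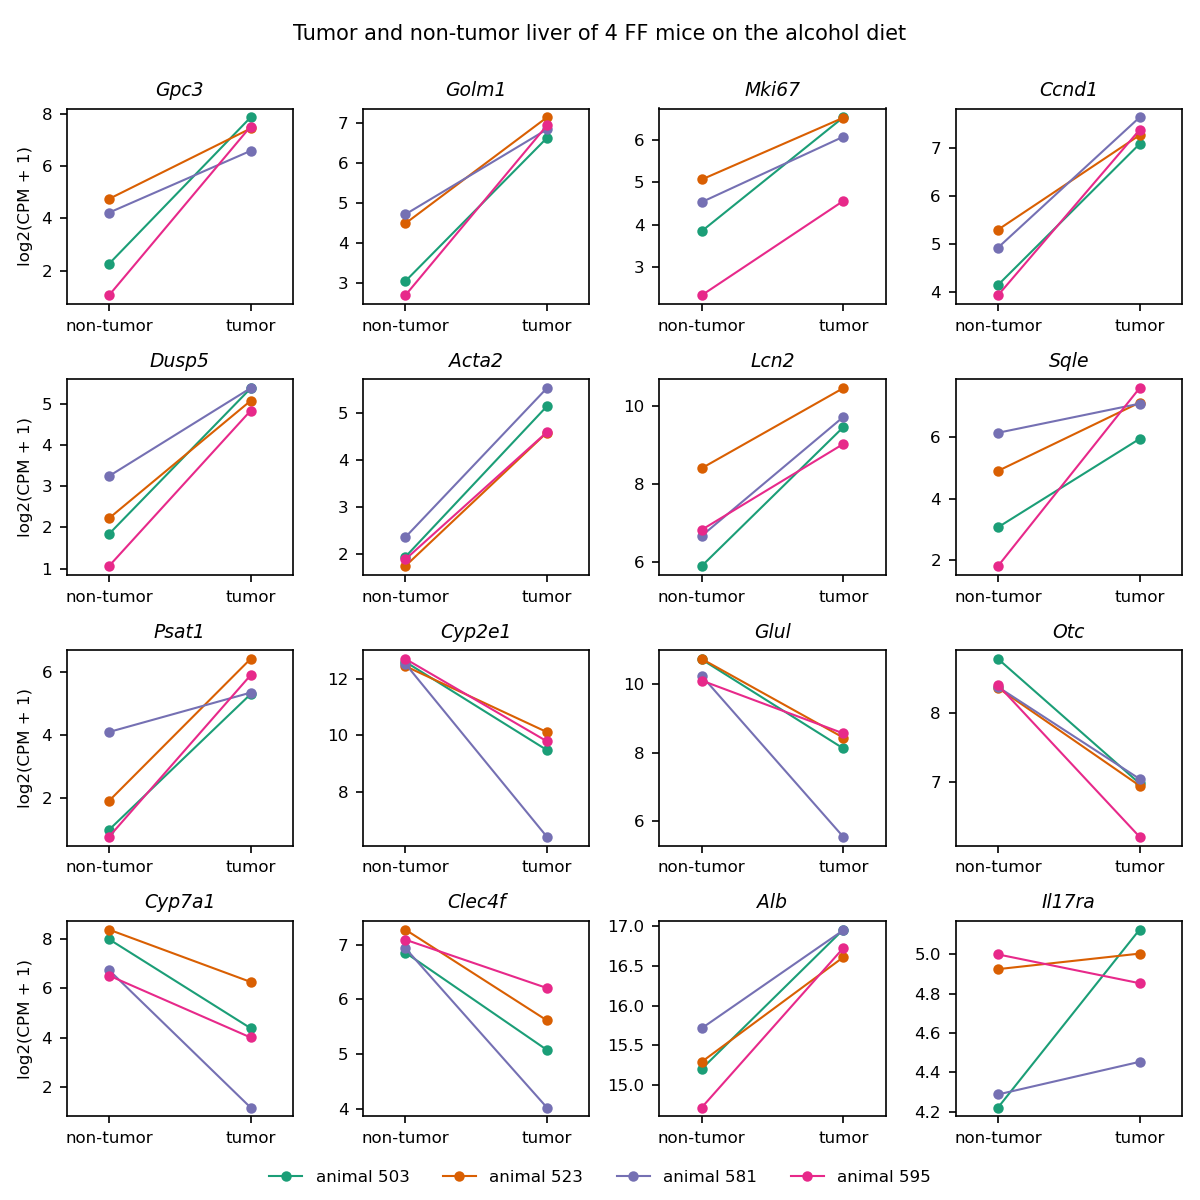
Levels of 16 genes in log2(CPM + 1) in non-tumor liver (left of each panel) and tumor (right), with 1 line per animal. Gpc3, Golm1, Ccnd1, Dusp5, Acta2, Lcn2 and Psat1 rise in all 4 animals, Cyp2e1, Glul, Otc, Cyp7a1 and Clec4f fall in all 4, and Il17ra does not move 1 way. The axes do not start at 0 and differ between panels.

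Among the 12 largest rises, the others were Kif5c, a kinesin motor protein, Ly6d, a small membrane-anchored surface protein, Vmn2r3, annotated as a vomeronasal receptor, Akr1c18, a steroid dehydrogenase that clears progesterone, Klrb1b, a lectin-like receptor of natural killer cells, Tspan8, a membrane tetraspanin, Psat1, Hid1, Cdkn2b and Cyp2a4, a steroid hydroxylase. Ly6d was at 217, 565, 229.5 and 539 CPM in tumors against 18.6, 45.3, 50.4 and 2.56 CPM (log2 difference 4.12 ± 0.71, adjusted p = 0.0043). Klrb1b was at 81.0, 86.6, 64.5 and 86.0 CPM against 2.66, 9.45, 24.6 and 0 CPM, while the natural killer markers Klrb1c, Ncr1 and Gzma averaged below 1 CPM in both tissues and did not pass the filter. All of the 12 largest rises except Vmn2r3, with Gpc3 and Spink1 included, had their highest non-tumor values in animals F_F_523 and F_F_581. Vmn2r3 was above 0 only in the non-tumor library of F_F_581. Tspan8 overlapped between the groups because the tumor of F_F_503 was at 37.9 CPM, below the non-tumor library of F_F_581 at 59.1 CPM (log2 difference 3.83 ± 0.75, adjusted p = 0.0076). Reads of Cyp2a4 and the near-identical Cyp2a5, and of members of the Klrb1 family, may have been split between copies, so those values are uncertain. Cyp2a4 lost its call without animal F_F_503.

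**Figure D2:**
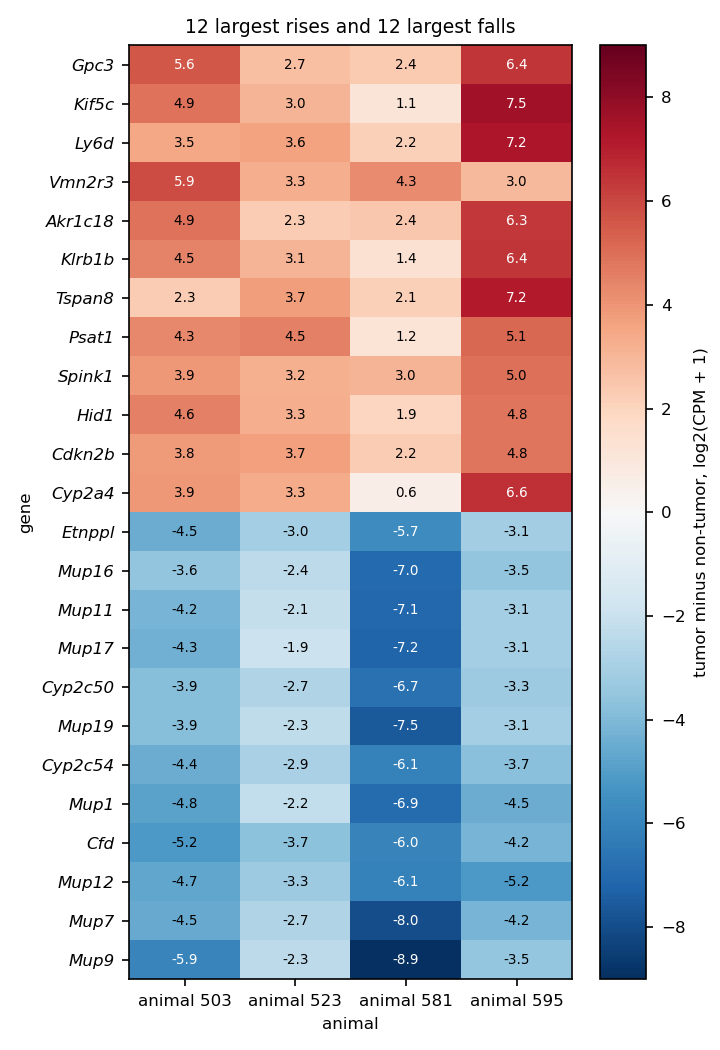
Tumor minus non-tumor differences in log2(CPM + 1), printed in each cell, for the 12 genes with the largest rises and the 12 with the largest falls, in columns by animal. Red is higher and blue is lower in tumor; the falls are deepest in animal F_F_581 and the rises mostly largest in animal F_F_595.

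Genes of cell division were raised. Of 24 tested, 22 were higher and none was lower, with a median of 1.08. Mki67, the proliferation marker Ki-67, stood at 91.6, 91.1, 66.5 and 22.6 CPM in tumors and 13.4, 32.5, 22.1 and 4.03 CPM in non-tumor liver. It rose in each animal, but the tumor of F_F_595, at 22.6 CPM, lay within the non-tumor range (log2 difference 1.98 ± 0.21, adjusted p = 0.00074). Cdk1, the kinase that starts mitosis, was at 13.1, 11.8, 8.73 and 4.46 CPM against 1.90, 3.40, 3.30 and 1.15 CPM, without overlap (log2 difference 1.59 ± 0.21, adjusted p = 0.0014). Ccne1, cyclin E1, which drives entry into DNA synthesis, was at 5.05, 13.8, 15.1 and 23.9 CPM against 0.989, 3.54, 3.76 and 2.95 CPM and was highest in the tumor of F_F_595 (log2 difference 1.93 ± 0.20, adjusted p = 0.00072). Pcna, the DNA polymerase clamp (0.08 ± 0.16), and Mcm3, a helicase subunit (0.35 ± 0.15), were not called. Without the block 12 members were called, and without the non-tumor libraries of F_F_523 and F_F_581 there were 17.

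Stretches of the promoters of 3 of these genes are printed because cell-division genes share a short element, the cell cycle genes homology region (CHR), and the genes moved together. The search used RefSeq windows of 300 bases, from 250 before to 50 after each gene's start (GRCm38.p6), for TTTGAA on both strands (TTCAAA on the other). It matched 12 of the 22 windows (54.5%) of the 21 members with a window, against 17.9% of all 32851 windows. All 11 members with a match were higher in tumors, but so were 22 of the 24 tested members with or without a match. The CCAAT box (CCAAT, or ATTGG on the other strand) was in 86.4% of these windows and 37.4% of all; the 2 elements can share at most 1 base. Capitals mark the CHR match, 5′ to 3′ on the gene's strand, and the stretches are chr10:69352938-69353023 on the minus strand for Cdk1, chr4:118437344-118437401 on the minus strand for Cdc20 and chr19:37376323-37376381 on the plus strand for Kif11.
Cdk1: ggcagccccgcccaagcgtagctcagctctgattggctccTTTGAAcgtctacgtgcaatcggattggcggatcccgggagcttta
Cdc20: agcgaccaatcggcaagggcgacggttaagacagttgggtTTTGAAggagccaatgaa
Kif11: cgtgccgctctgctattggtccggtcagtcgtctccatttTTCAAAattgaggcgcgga
In Kif11 the match is on the other strand. Cdk1 has another match, 15 to 10 bases before its start, which lies outside the printed stretch. The Cdk1 stretch also holds attgg before and again after the match, the Kif11 stretch holds it before, and the Cdc20 stretch holds ccaat on both sides. Cdc20, which activates the anaphase-promoting complex, was at 10.99, 10.4, 8.66 and 2.60 CPM in tumors against 1.82, 2.54, 3.30 and 0.896 CPM (log2 difference 1.47 ± 0.22, adjusted p = 0.0024). Kif11, a spindle motor, was at 14.3, 12.2, 7.99 and 3.73 CPM against 3.32, 5.94, 4.48 and 1.09 CPM (log2 difference 1.16 ± 0.20, adjusted p = 0.0046). In both genes the tumor of F_F_595 lay within the non-tumor range. A match describes these letters in the window and is neither a shown site nor a cause.

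D-type cyclins and inhibitors of cyclin-dependent kinases changed in part: 6 of 11 were higher and none was lower (median 0.57). Ccnd1, cyclin D1, was at 134, 152, 197 and 164.1 CPM in tumors and 16.8, 38.3, 29.4 and 14.3 CPM in non-tumor liver, with no overlap (log2 difference 2.75 ± 0.21, adjusted p = 0.00035). Cdkn2b, the inhibitor p15, was at 20.7, 38.0, 37.7 and 33.8 CPM against 0.532, 2.07, 7.12 and 0.256 CPM and was below 10 CPM in every non-tumor library (log2 difference 3.64 ± 0.36, adjusted p = 0.0006). Cdkn2a, which encodes p16 and p19ARF, rose from a very low level, 0.304, 0.200, 0.593 and 0.128 CPM, to 1.08, 2.13, 2.78 and 2.00 CPM (log2 difference 1.18 ± 0.20, adjusted p = 0.004). Cdkn1a, the inhibitor p21 (1.29 ± 0.30), and Cdk6, a partner kinase of D cyclins (0.57 ± 0.14), were called as well, Cdk6 not without the block or without animal F_F_503, whereas Ccnd2 (0.28 ± 0.23) and Ccnd3 (0.01 ± 0.11) were not.

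Feedback genes of the MAP kinase pathway rose nearly together. Of 15 tested, 13 were higher and 1 was lower (median 1.11). Dusp5, a phosphatase that holds ERK in the nucleus, was at 40.6, 32.8, 40.8 and 27.6 CPM in tumors and 2.58, 3.67, 8.503 and 1.09 CPM in non-tumor liver. The lowest tumor was more than 3 times the highest non-tumor library (log2 difference 3.08 ± 0.26, adjusted p = 0.00042). Dusp6, an ERK phosphatase of the cytoplasm, was at 232, 159.4, 185 and 204 CPM against 101, 102, 83.0 and 72.4 CPM (log2 difference 1.11 ± 0.14, adjusted p = 0.0014). Dusp4 (2.31 ± 0.24), Ier3, an immediate early gene (2.07 ± 0.22), and Etv4, an ETS transcription factor below 4 CPM in every library (1.72 ± 0.20), rose without overlap. Phlda1, a pleckstrin-like protein, was the 1 member that fell (log2 difference -0.99 ± 0.30, adjusted p = 0.04), and that call was lost in 6 alternatives.

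p53 target genes were higher for 9 of 14, with none lower (median 0.70). Tnfrsf10b, a death receptor, was at 7.49, 9.31, 13.3 and 13.2 CPM in tumors against 0.836, 1.20, 2.11 and 0.704 CPM in non-tumor liver (log2 difference 2.42 ± 0.19, adjusted p = 0.00035). Phlda3, an inhibitor of AKT, was at 5.86, 7.99, 12.9 and 16.1 CPM against 0.836, 2.14, 2.505 and 1.02 CPM (log2 difference 2.12 ± 0.26, adjusted p = 0.0011). The groups did not overlap for either. Mdm2, the ligase that degrades p53, rose less (0.59 ± 0.10), a call lost without the non-tumor libraries of F_F_523 and F_F_581, and Bbc3 (0.17 ± 0.22) and Pmaip1 (0.49 ± 0.27), which promote apoptosis, were not called. Casp2, a caspase linked to p53 signalling, was at 10.9, 9.31, 11.8 and 10.3 CPM against 4.18, 9.61, 7.38 and 5.25 CPM, overlapped, and passed by little (log2 difference 0.66 ± 0.21, adjusted p = 0.045); it lost its call in 5 alternatives. With the non-tumor libraries of F_F_523 and F_F_581 left out, 4 p53 targets were called.

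Most of the mature hepatocyte programme moved the other way. Pericentral, Wnt-responsive genes were lower for 12 of 15 and higher for none, with a median of -1.50. Cyp2e1 (chr7:140763739-140774987, GRCm38), the ethanol-oxidising cytochrome P450, had 6270.0, 5637, 5975 and 6741 CPM in non-tumor liver and 714, 1112, 83.6 and 886 CPM in tumors. Non-tumor liver was uniform, and the tumor of F_F_581 was lowest (log2 difference -3.64 ± 0.57, adjusted p = 0.0029). Glul, glutamine synthetase, was at 1682, 1702, 1208 and 1098 CPM in non-tumor liver and 278, 347, 45.9 and 378 CPM in tumors, again lowest in F_F_581 (log2 difference -2.78 ± 0.45, adjusted p = 0.0033). Oat, ornithine aminotransferase, was at 87.2, 158.3, 15.7 and 75.6 CPM in tumors against 1149, 935, 893 and 467 CPM (log2 difference -3.65 ± 0.49, adjusted p = 0.0016). Axin2, a direct feedback target of Wnt signalling, fell from 8.52, 13.7, 6.83 and 5.57 CPM to 2.12, 3.59, 1.12 and 2.73 CPM (log2 difference -1.50 ± 0.20, adjusted p = 0.0017). Tbx3, a transcription factor, fell from 22.6, 33.6, 21.3 and 32.6 CPM to 2.08, 6.08, 1.85 and 7.33 CPM (log2 difference -2.55 ± 0.19, adjusted p = 0.00035). Lect2, a secreted Wnt-responsive protein, was not called (-0.03 ± 0.32). When the non-tumor libraries of F_F_523 and F_F_581 were dropped, 7 members were called lower.

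Periportal and urea cycle genes fell for 13 of 16, with none higher (median -1.17). Ass1, argininosuccinate synthase, was at 519, 326, 548 and 358 CPM in tumors and 2274, 1301, 1625 and 887 CPM in non-tumor liver (log2 difference -1.75 ± 0.17, adjusted p = 0.00056). Asl, the next enzyme of the cycle, was at 124, 99.5, 92.4 and 95.8 CPM against 366, 285, 332 and 355 CPM (log2 difference -1.69 ± 0.11, adjusted p = 0.00026). Otc, ornithine transcarbamylase, was at 125, 122, 131 and 73.0 CPM against 437, 326, 329 and 336 CPM (log2 difference -1.68 ± 0.16, adjusted p = 0.00051). All 3 were separated between the tissues, and tumors differed from one another by less than 2-fold. Cps1, the first enzyme of the cycle, fell less (log2 difference -1.15 ± 0.18, adjusted p = 0.0033). Agxt, which detoxifies glyoxylate, was not called (0.04 ± 0.18).

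Cytochromes P450 and the receptors that induce them were lower for 17 of 20 and higher for none (median -2.14). Cyp2f2 stood at 61.7, 108, 14.3 and 77.0 CPM in tumors against 753, 659, 446 and 666 CPM (log2 difference -3.54 ± 0.33, adjusted p = 0.00051), and Cyp2c37 at 30.1, 51.3, 5.43 and 28.9 CPM against 385, 326, 285 and 343 CPM (log2 difference -3.82 ± 0.39, adjusted p = 0.00067). Cyp2c54 and Cyp2c50, both among the 12 largest falls (-4.30 ± 0.44 and -4.14 ± 0.57), were lowest in the tumor of F_F_581, at 0.708 and 5.35 CPM. Por, the reductase that feeds electrons to all microsomal P450 enzymes, was at 91.4, 135, 85.6 and 115 CPM against 182, 345, 259 and 339 CPM (log2 difference -1.37 ± 0.12, adjusted p = 0.0005). Nr1i3, the xenobiotic receptor CAR, fell too (-2.94 ± 0.31). Cyp2c genes are near-identical copies, so their single values are uncertain. Genes of ethanol handling overlapped this list through Cyp2e1: 9 of 11 were lower and 1, the mitochondrial aldehyde dehydrogenase Aldh1b1 (1.23 ± 0.37), was higher. That 1 higher call was lost in 5 settings: without animal F_F_581, without F_F_595, without the 2 doubted non-tumor libraries, without the block and with median-of-ratios scaling. Adh4, an alcohol dehydrogenase, was at 27.96, 30.4, 14.2 and 22.9 CPM in tumors against 139, 113, 90.1 and 95.9 CPM (log2 difference -2.19 ± 0.13, adjusted p = 0.00024). Aldh2, the main mitochondrial enzyme of acetaldehyde, was at 397, 434, 574 and 490.0 CPM against 1061, 1021, 1066 and 919 CPM (log2 difference -1.11 ± 0.14, adjusted p = 0.0012). Cat, catalase, fell by 1.53 ± 0.16, while Adh1, the main hepatic alcohol dehydrogenase, was not called (-0.43 ± 0.21).

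Bile acid synthesis and transport genes were lower for 16 of 20 and higher for none (median -1.63). Cyp7a1, the rate-limiting enzyme of bile acid synthesis, was at 253, 332, 106 and 90.7 CPM in non-tumor liver and 19.9, 75.7, 1.26 and 15.1 CPM in tumors. The tumor of F_F_523 kept the most and that of F_F_581 the least (log2 difference -3.45 ± 0.50, adjusted p = 0.0023). Slc27a5, which joins bile acids to coenzyme A, was at 190.1, 219.8, 179 and 214 CPM against 732, 778, 694 and 706 CPM and had one of the smallest p-values of the comparison (log2 difference -1.86 ± 0.10, adjusted p = 0.0002). Slc10a1, the sodium-dependent uptake transporter NTCP, was at 57.7, 53, 9.92 and 71.5 CPM against 361, 309.8, 359 and 338 CPM (log2 difference -3.10 ± 0.43, adjusted p = 0.0018). Abcb11, the canalicular export pump, fell less (-1.23 ± 0.11), and Abcc2, another canalicular pump, was not called (0.13 ± 0.14). Cyp7a1 lost its call without the non-tumor libraries of F_F_523 and F_F_581.

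**Figure D3:**
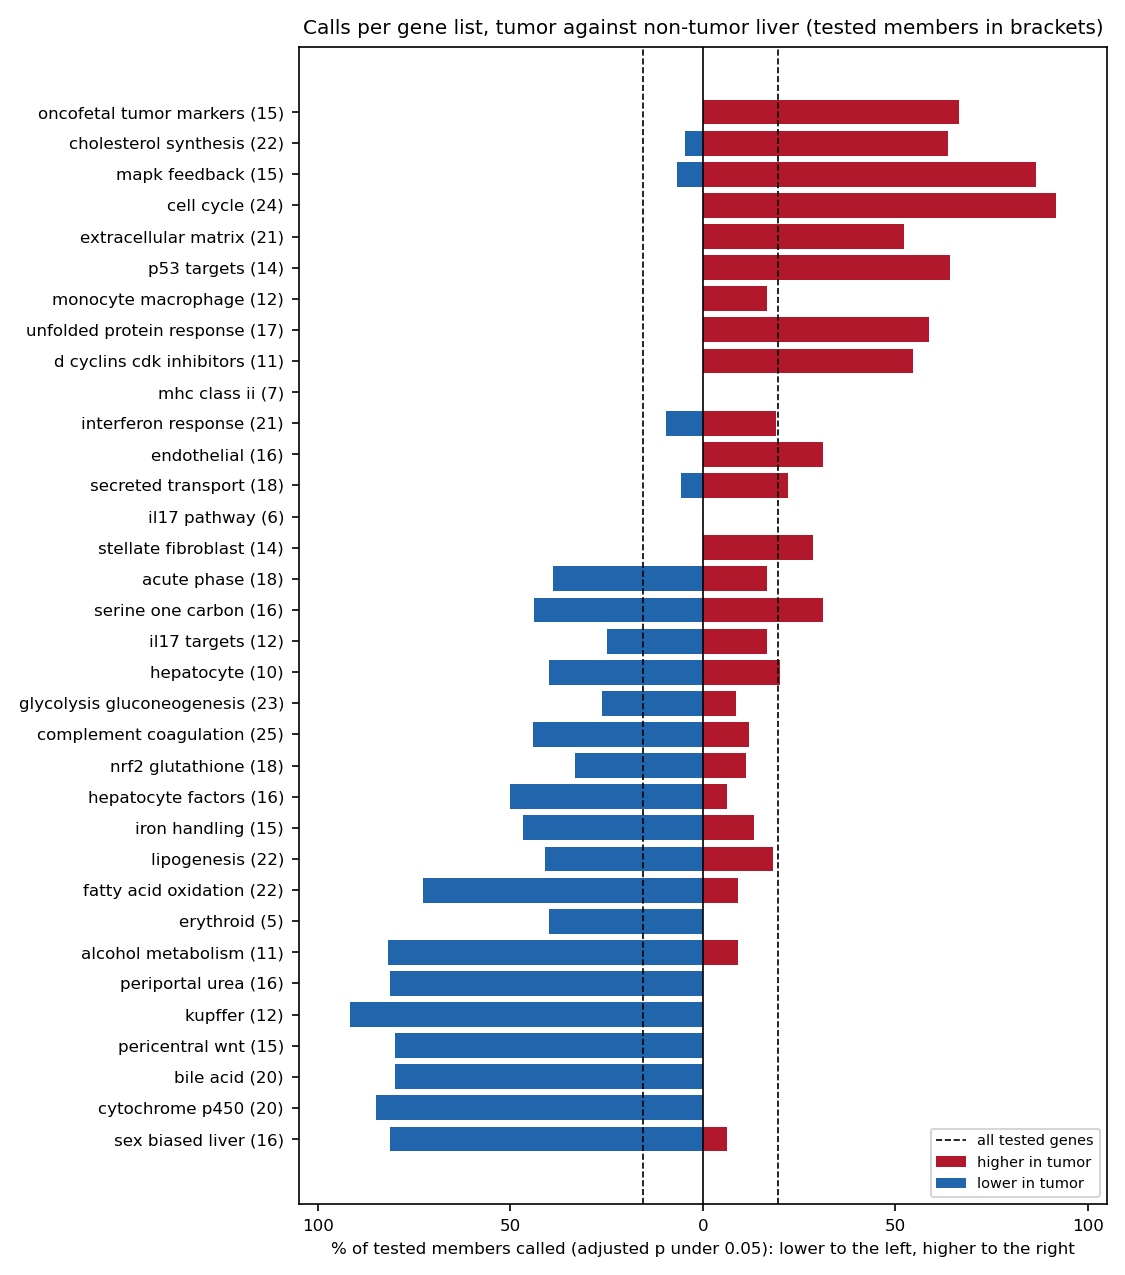
Percent of the tested members of each gene list (number in brackets) called lower, to the left, and higher, to the right, in tumors, for lists with 5 or more tested members. Dashed lines mark all tested genes, 15.6% lower and 19.6% higher; cell cycle and MAPK lists extend furthest right, and Kupffer and cytochrome P450 lists furthest left.

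Fatty acid oxidation and ketone body genes fell for 16 of 22 and rose for 2 (median -0.88). Ehhadh, a peroxisomal oxidation enzyme, was at 95.5, 117, 145 and 134 CPM in tumors and 336, 377, 592 and 343 CPM in non-tumor liver (log2 difference -1.71 ± 0.13, adjusted p = 0.00035). Cpt2, a carnitine transferase inside mitochondria, was at 57.0, 73.1, 65.9 and 60.6 CPM against 122, 139.8, 159.3 and 140.2 CPM (log2 difference -1.12 ± 0.10, adjusted p = 0.00045). Neither gene overlapped. The 2 members that rose were Fgf21, a hormone of fasting and stress, from 0.836, 5.27, 6.39 and 0.384 CPM to 8.30, 16.1, 22.6 and 7.06 CPM (log2 difference 2.00 ± 0.21, adjusted p = 0.00075), and Bdh1, which interconverts ketone bodies (0.72 ± 0.17). Without animal F_F_503, and again without the block, 1 of the 2 was called. Cpt1a, the carnitine transferase that controls entry into mitochondria, was not called (0.18 ± 0.17).

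Of 22 lipogenic and lipid droplet genes, 4 were higher and 9 lower (median -0.75), against 19.6% and 15.6% of all tested genes. Srebf1, the regulator of fatty acid synthesis, was at 247, 166, 275 and 108 CPM in tumors and 558, 413, 411 and 139.7 CPM in non-tumor liver, lower in each animal with overlap (log2 difference -0.86 ± 0.17, adjusted p = 0.0081), and the call was lost in 3 alternatives, no block among them. Thrsp, a lipogenic protein, fell (log2 difference -2.38 ± 0.14, adjusted p = 0.00024), as did Me1, malic enzyme (-1.84 ± 0.24), and Plin5, a droplet coat protein (-1.49 ± 0.17). Pnpla3, a droplet lipase, rose from 2.05, 4.005, 4.94 and 0.640 CPM to 21.6, 19.1, 60.0 and 9.92 CPM (log2 difference 2.75 ± 0.22, adjusted p = 0.00035). Fasn, fatty acid synthase, was at 763, 477, 1762 and 661 CPM against 1167, 1418, 929 and 167.2 CPM: lower in the tumors of F_F_503 and F_F_523 and higher in those of F_F_581 and F_F_595 (log2 difference 0.18 ± 0.52, adjusted p = 0.82). Scd1, the main liver desaturase, was lower in each animal but was not called (log2 difference -1.02 ± 0.46, adjusted p = 0.13), whereas Scd2 rose.

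Cholesterol synthesis genes rose for 14 of 22 and fell for 1 (median 1.23). Mvd, mevalonate decarboxylase, was at 9.83, 18.3, 21.4 and 20.4 CPM in tumors and 3.88, 7.14, 8.77 and 3.46 CPM in non-tumor liver (log2 difference 1.46 ± 0.21, adjusted p = 0.002). Sqle, squalene epoxidase, was at 60.3, 138, 135 and 192 CPM against 7.38, 28.8, 69.4 and 2.497 CPM; animal F_F_595 had the lowest non-tumor value and the highest tumor value (log2 difference 2.96 ± 0.66, adjusted p = 0.013). Srebf2, the regulator of the pathway, rose by less (0.67 ± 0.11, adjusted p = 0.0031). Dhcr7, the last reductase of the pathway, was at 47.2, 50.7, 103 and 78.0 CPM against 30.0, 33.0, 44.5 and 6.15 CPM (log2 difference 1.48 ± 0.44, adjusted p = 0.038) and lost its call in 4 alternatives. Ebp, a sterol isomerase, was the 1 member that fell (-0.77 ± 0.10).

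Among glycolytic and gluconeogenic genes, 2 of 23 were higher and 6 lower (median -0.32), against 19.6% and 15.6% of all tested genes. Pck1 (-1.63 ± 0.34) and Fbp1 (-1.06 ± 0.14), enzymes of glucose production, fell. Hk2 (-0.40 ± 0.35), Pkm (0.13 ± 0.32) and Ldha (0.10 ± 0.21), often raised in tumors, were not called. G6pdx, which opens the pentose phosphate pathway, rose (log2 difference 0.77 ± 0.13, adjusted p = 0.0045), a call lost without the block, where no member was called higher. Without animal F_F_581, 4 were higher, and without F_F_503 or F_F_595 there was 1. Without animal F_F_595, 9 members were called lower, and without the non-tumor libraries of F_F_523 and F_F_581 there were 3.

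Serine synthesis genes rose while methionine cycle genes fell. Phgdh, the first enzyme of serine synthesis, was at 22.9, 17.8, 10.7 and 12.6 CPM in tumors and 0.684, 1.67, 3.30 and 0.320 CPM in non-tumor liver (log2 difference 2.86 ± 0.36, adjusted p = 0.0012). Psat1, the second, was at 38.4, 84.9, 39.8 and 58.9 CPM against 0.989, 2.76, 16.1 and 0.704 CPM (log2 difference 3.80 ± 0.57, adjusted p = 0.0025), and Psph, the last, at 16.9, 18.5, 16 and 24.2 CPM against 4.79, 4.47, 6.66 and 4.74 CPM (log2 difference 1.69 ± 0.18, adjusted p = 0.00072). None of the 3 overlapped. Gnmt, which uses S-adenosylmethionine to methylate glycine, was at 128, 94.0, 102 and 56.5 CPM against 896, 525, 761 and 499 CPM (log2 difference -2.82 ± 0.13, adjusted p = 0.0002). Bhmt, which remakes methionine from homocysteine (-2.43 ± 0.16; not called without the non-tumor libraries of F_F_523 and F_F_581), and Ahcy, which splits S-adenosylhomocysteine (-2.07 ± 0.11), also fell. Over the whole list 5 of 16 were higher and 7 lower, against 19.6% and 15.6% of all tested genes.

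Genes of the unfolded protein response were higher for 10 of 17 and lower for none (median 0.65). Trib3, a pseudokinase of the ATF4 branch, was at 71.4, 63.8, 74.9 and 18.4 CPM in tumors and 6.01, 5.07, 16.3 and 2.24 CPM in non-tumor liver, with the tumor of F_F_595 the lowest of the 4 (log2 difference 2.88 ± 0.23, adjusted p = 0.00035). Ddit3, the stress factor CHOP, was at 21.1, 17.5, 26.6 and 25.1 CPM against 5.45, 5.74, 9.01 and 9.16 CPM (log2 difference 1.52 ± 0.13, adjusted p = 0.00039). Pdia6, a disulfide isomerase of the endoplasmic reticulum, was at 785, 669, 645 and 602 CPM against 209, 271, 257 and 343 CPM (log2 difference 1.33 ± 0.18, adjusted p = 0.0015). These 3 did not overlap. Hspa5, the chaperone BiP, was at 2207, 1779, 1060.3 and 1991 CPM against 749.8, 712, 631 and 1708 CPM; the non-tumor library of F_F_595, at 1708 CPM, exceeded the tumor of F_F_581 (log2 difference 0.96 ± 0.23, adjusted p = 0.017). Creld2, a secreted chaperone-like protein, was highest of all 8 libraries in that same non-tumor library, at 199 CPM, and was not called (0.52 ± 0.33). Without animal F_F_595, 14 members were called, without F_F_503 or without F_F_523 only 5, and without the non-tumor libraries of F_F_523 and F_F_581 also 5; without the block 6 were.

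Promoter stretches are shown for Hspa5, Hsp90b1 and Pdia6 because these 3 chaperone genes rose and hold the endoplasmic reticulum stress element (ERSE), searched on both strands as CCAAT, any 9 bases, CCACG. It was in 5 of 15 windows of the list (33.3%), those of Creld2, Dnajc3, Hsp90b1, Hspa5 and Pdia6, and in 0.119% of all windows. Creld2 and Dnajc3 were not called. The element contains CCAAT, so each match is also a CCAAT box. Capitals mark the element, 5′ to 3′ on the gene's strand, from RefSeq (GRCm38.p6), and the stretches are chr2:34771985-34772083 on the plus strand for Hspa5, chr10:86705598-86705694 on the minus strand for Hsp90b1 and chr12:17266451-17266549 on the plus strand for Pdia6.
Hspa5: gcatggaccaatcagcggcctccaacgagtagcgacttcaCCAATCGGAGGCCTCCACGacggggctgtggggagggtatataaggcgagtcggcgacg
Hsp90b1: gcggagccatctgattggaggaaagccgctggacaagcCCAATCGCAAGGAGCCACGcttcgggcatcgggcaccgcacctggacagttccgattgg
Pdia6: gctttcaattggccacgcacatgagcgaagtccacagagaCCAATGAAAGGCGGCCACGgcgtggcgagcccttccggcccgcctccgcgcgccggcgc
Hsp90b1, the chaperone GRP94, was at 1608, 1466, 901 and 1549 CPM in tumors against 790.3, 865, 688 and 1199 CPM (log2 difference 0.64 ± 0.16, adjusted p = 0.02). Hspa5 and Hsp90b1 each lost the call in 4 alternatives: without the block, without animal F_F_503, without F_F_523, and without the non-tumor libraries of F_F_523 and F_F_581. The sterol element searched as ATCAC, any base, CCAC matched none of 18 windows of the cholesterol genes (0.234% of all windows), and the amino acid response letters TGATGNAAT matched none of 15 windows of the stress list or 14 of the serine list (0.965% of all). The TCF letters CTTTGATC matched 2 of 13 windows of the pericentral list, those of Sp5 and Lect2, against 0.938% of all.

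Among glutathione and NRF2 genes, 2 of 18 were higher and 6 lower (median -0.39), against 19.6% and 15.6% of all tested genes. Gsta3, a glutathione transferase, was at 266, 443, 197 and 296 CPM in tumors and 1111, 1189.5, 1249 and 732 CPM in non-tumor liver (log2 difference -1.86 ± 0.23, adjusted p = 0.0011). Hmox1, heme oxygenase, fell (-0.91 ± 0.12), as did Gclm, a subunit that limits glutathione synthesis (-0.72 ± 0.10). Slc7a11, the cystine importer, rose in each animal but to very different levels, 5.37, 154, 18.1 and 18.4 CPM against 1.56, 9.40, 10.2 and 1.01 CPM (log2 difference 2.31 ± 0.50, adjusted p = 0.011); the tumor of F_F_503 was below the non-tumor libraries of F_F_523 and F_F_581. Without the block, Slc7a11 lost its call and no member was called higher; without those 2 non-tumor libraries it lost it too, Gclm lost its own, and 1 member was higher.

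Il17ra, the floxed gene, was not deleted in these mice and was not called. It was at 33.9, 31.1, 20.9 and 27.9 CPM in tumors and 17.6, 29.4, 18.5 and 31.0 CPM in non-tumor liver, with wide overlap (log2 difference 0.25 ± 0.18, adjusted p = 0.31; exact sign-flip permutation test, 2-sided, p = 0.375). None of the 6 tested receptor and adaptor genes was called by limma (1 at an unadjusted p below 0.05), and Il17a was at 0 in all 8 libraries. Of 12 tested genes known to respond to interleukin 17, 2 were higher and 3 lower (median -0.29), against 19.6% and 15.6% of all tested genes. The 3 lower became 1 without the block and 1 without the non-tumor libraries of F_F_523 and F_F_581, and 1 was higher in 6 of the settings. Lcn2 (chr2:32384633-32388252, GRCm38), the iron-scavenging secreted protein lipocalin 2, was at 706, 1417, 847 and 523.1 CPM in tumors and 58.6, 339.6, 101 and 113 CPM in non-tumor liver. All tumors lay above all non-tumor libraries, and animal F_F_523 was highest in both tissues (log2 difference 2.72 ± 0.25, adjusted p = 0.0005; exact p = 0.125, the smallest that 4 pairs allow). Cxcl1, a neutrophil-attracting chemokine, was at 41.7, 75.6, 49.6 and 76.4 CPM against 4.11, 16.4, 13.4 and 116 CPM; the highest value of all was the non-tumor library of F_F_595 (log2 difference 1.60 ± 0.51, adjusted p = 0.045), and 8 alternatives ended the call. Cxcl2, Cxcl5, Il6 and Csf3 were too low to test.

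Saa1 and Saa2, the liver's serum amyloid A genes, went the opposite way to Lcn2. Saa1 was at 27.0, 123, 25.3 and 50.4 CPM in tumors and 87.0, 549.3, 43.8 and 1200.5 CPM in non-tumor liver, lower in each tumor although the animals differed widely and the groups overlapped (log2 difference -2.28 ± 0.53, adjusted p = 0.014). Saa1 and Saa2 each lost the call in 3 alternatives, among them no block and the non-tumor libraries of F_F_523 and F_F_581 left out. Saa1 and Saa2 are near-identical, so how their reads were divided is uncertain. Of 18 acute phase genes, 3 were higher and 7 lower (median 0.02), against 19.6% and 15.6% of all tested genes. Orm3, an orosomucoid, was at 1.501, 7.91, 0 and 0.988 CPM against 28.1, 58.6, 14.6 and 18.9 CPM (log2 difference -3.39 ± 0.21, adjusted p = 0.00024), and Crp, C-reactive protein, at 81.8, 78.7, 58.1 and 96.5 CPM against 268, 253, 222 and 306 CPM (log2 difference -1.74 ± 0.10, adjusted p = 0.0002). Serpina3n, a protease inhibitor, rose (1.07 ± 0.21). Without the non-tumor libraries of F_F_523 and F_F_581, 1 was higher and 3 were lower, without the block 3 were lower, and without animal F_F_595, 6 were higher.

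Complement and coagulation genes were lower for 11 of 25 and higher for 3 (median -0.33), against 15.6% and 19.6% of all tested genes. C6, a part of the membrane attack complex, was at 60.9, 87.2, 25.3 and 145 CPM in tumors and 288, 223, 186 and 534 CPM in non-tumor liver (log2 difference -2.07 ± 0.22, adjusted p = 0.00073). Mbl1, mannose-binding lectin, fell as well (log2 difference -1.87 ± 0.15, adjusted p = 0.00035). Kng1, kininogen, rose from 1441, 2029, 2486 and 1760.5 CPM to 5170.4, 5641, 7035 and 7387 CPM (log2 difference 1.72 ± 0.20, adjusted p = 0.001). With the non-tumor libraries of F_F_523 and F_F_581 left out, 6 were called lower; without animal F_F_523 there were 7.

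The most abundant secreted proteins did not share the fall. Of 18 transport proteins and apolipoproteins, 4 were higher, where 19.6% of all tested genes were, and 1 was lower, where 15.6% were (median 0.18). Alb, albumin, took 127485, 100094, 126812 and 108442 CPM in tumors and 37640.0, 40044, 53739 and 26838 CPM in non-tumor liver. Every tumor was above every non-tumor library, yet the call was missed (log2 difference 1.58 ± 0.67, adjusted p = 0.11). Trf, transferrin, was likewise higher in each animal without a call (log2 difference 1.44 ± 0.48, adjusted p = 0.053). Both SEs also draw on the mean-variance trend over other genes, so neither missed call measures the spread between the 4 pairs alone. Apoa4, an apolipoprotein of lipid transport, was at 12090.3, 3813, 8684 and 5251 CPM against 518.3, 1818, 1614 and 227 CPM (log2 difference 3.14 ± 0.57, adjusted p = 0.0054), and Apoa1, the main protein of high-density lipoprotein, at 15959.9, 14063, 18742 and 14047 CPM against 3948, 4045, 7268 and 4395 CPM (log2 difference 1.71 ± 0.28, adjusted p = 0.0035). Apoa2 was the 1 that fell (-1.28 ± 0.18). The 10 most abundant genes took 26.5 to 32.2% of all CPM in tumors against 18.2 to 19.4% in the non-tumor libraries, and CPM are shares of a fixed total. Scaling by the median of ratios in place of the CPM total moved the median difference to -0.01 and gave 2295 higher and 2399 lower genes, so the share of calls that were higher went from 55.6% to 48.9%.

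Transcription factors of the hepatocyte fell modestly: 8 of 16 were lower and 1, Foxa3 (0.79 ± 0.20), was higher (median -0.42). No factor was called higher without animal F_F_503, without F_F_581, without the block, or without the non-tumor libraries of F_F_523 and F_F_581. Hnf4a, a master regulator of hepatocyte genes, was at 473, 558, 525 and 528 CPM in tumors and 586, 570.1, 618 and 922 CPM in non-tumor liver; every tumor was below every non-tumor library, but it was not called (log2 difference -0.34 ± 0.15, adjusted p = 0.12). Cebpa, which holds hepatocytes out of division, fell (log2 difference -0.85 ± 0.10, adjusted p = 0.00083), as did Onecut2 (-1.87 ± 0.32) and Rxra, the shared partner of nuclear receptors (-0.59 ± 0.11). When the non-tumor libraries of F_F_523 and F_F_581 were dropped, 4 were called lower. Of 10 general hepatocyte markers, 2 were higher, Apoa1 and Serpina1a, and 4 lower, among them Cps1, Asgr1 and Tdo2. The shares over all tested genes were 19.6% higher and 15.6% lower. The sum of the 10 was 155386 to 181834 CPM in tumors against 65531 to 98186 CPM in non-tumor liver. Most of the difference between these sums was Alb, which was not called and averaged 115708 CPM in tumors against 39565 CPM in non-tumor liver. Of the 10 log2 differences, 6 lay below 0. Both tissues thus carried hepatocyte RNA at a high level.

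The deepest falls were in the major urinary protein genes, Mup, whose products carry pheromones and which depend on growth hormone. Mup genes made up 8 of the 12 largest falls. Mup12 was at 14.9, 12.2, 1.17 and 17.1 CPM in tumors against 414, 126, 146 and 651 CPM (log2 difference -4.81 ± 0.39, adjusted p = 0.00036), and Mup7 at 637, 379.6, 9.92 and 1273 CPM against 14990.4, 2498, 2714 and 22887 CPM (log2 difference -4.85 ± 0.73, adjusted p = 0.0025). The non-tumor libraries of F_F_523 and F_F_581 were lower than those of F_F_503 and F_F_595, and the tumor of F_F_581 was lowest by far. Mup genes are near-identical, so single values are uncertain, although all 8 fell in each animal. Of 16 sex-biased and growth hormone-responsive genes, 13 were lower and 1, Cyp2b9 (2.37 ± 0.67), higher (median -2.29). Cyp2b9 lost its call in 4 alternatives, among them no block and animal F_F_503 left out, where no member was called higher. Igf1, insulin-like growth factor 1, was at 78.1, 116, 25.3 and 103 CPM against 666, 648, 456 and 454 CPM (log2 difference -2.95 ± 0.29, adjusted p = 0.00063). Ghr, the growth hormone receptor, was at 168.6, 209, 113 and 134 CPM against 683, 569, 459 and 424 CPM (log2 difference -1.78 ± 0.13, adjusted p = 0.00035), and Igfals, which binds circulating IGF1, also fell (-2.79 ± 0.27). The sex of the animals is not given, and how far it differed between animals was not tested; each comparison is within an animal. Cfd, adipsin, a complement protease made mainly by fat cells, fell from 96.0, 46.3, 85.7 and 20.8 CPM to 1.71, 2.71, 0.331 and 0.200 CPM (log2 difference -4.76 ± 0.36, adjusted p = 0.00035). Of the other fat cell markers, Plin1 was at 0 in all 8 libraries, Adipoq averaged 0 CPM in tumors and 0.0501 CPM in non-tumor liver, and Fabp4 was not called (0.45 ± 0.22). In the fit without the non-tumor libraries of F_F_523 and F_F_581, 1 fat cell gene was called higher. Etnppl, which breaks down phosphoethanolamine, completed the 12 largest falls (-4.09 ± 0.41).

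Iron genes were lower for 7 of 15 and higher for 2 (median -0.54), against 15.6% and 19.6% of all tested genes. Id1, a target of bone morphogenetic protein signalling, was at 31.2, 37.8, 63.4 and 27.8 CPM in tumors and 1.98, 5.07, 6.00 and 3.20 CPM in non-tumor liver, with no overlap (log2 difference 3.02 ± 0.16, adjusted p = 0.0002). Tfr2 (-0.92 ± 0.10) and Tmprss6 (-0.91 ± 0.11), sensors and brakes of the hepcidin pathway, fell, as did Ftl1, the ferritin light chain (-1.05 ± 0.18). Hamp, hepcidin, was not called (-0.47 ± 0.60). Without the non-tumor libraries of F_F_523 and F_F_581, 3 were lower; without F_F_503, F_F_523 or F_F_581 altogether, 1 was higher.

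Resident macrophage markers were lower. Of 12 Kupffer cell genes, 11 fell and none rose (median -1.27), and their sum was 233 to 473 CPM in tumors against 696 to 1018 CPM in non-tumor liver. Clec4f, a lectin particular to Kupffer cells, was at 32.6, 47.9, 15.2 and 72.8 CPM in tumors and 115, 154, 121 and 135 CPM in non-tumor liver (log2 difference -1.81 ± 0.28, adjusted p = 0.0029). Cd163, the hemoglobin scavenger receptor, was at 3.88, 6.82, 1.59 and 11.6 CPM against 20, 34.8, 21.2 and 38.8 CPM (log2 difference -2.27 ± 0.22, adjusted p = 0.00062), and Marco, a scavenger receptor, at 3.16, 4.76, 1.46 and 4.53 CPM against 20.7, 16.1, 17.1 and 16.7 CPM (log2 difference -2.13 ± 0.23, adjusted p = 0.00081). All 3 were lower in every tumor than in any non-tumor library, and the tumor of F_F_581 was lowest for each. C1qb was the 1 member not called (-0.48 ± 0.17). With the non-tumor libraries of F_F_523 and F_F_581 left out, 5 were called, and without F_F_523 or F_F_581 altogether there were 7.

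Of 12 markers of recruited monocytes and macrophages, 2 were higher, where 19.6% of all tested genes were, and none was lower (median 0.67). Whether they differed from the Kupffer cell genes was not tested. Spp1, osteopontin, which macrophages, bile duct cells and tumor cells can make, was at 223, 383, 388 and 151 CPM in tumors and 42.8, 58.3, 98.6 and 21.1 CPM in non-tumor liver (log2 difference 2.45 ± 0.15, adjusted p = 0.00024). Ly6c2, a surface protein of inflammatory monocytes, was the other and was near 1 CPM (log2 difference 0.71 ± 0.22, adjusted p = 0.044); it lost its call in 4 alternatives, among them those without F_F_503, F_F_581 or F_F_595. The list's sum was 332 to 572 CPM against 138 to 299.5 CPM, most of the difference being Spp1: the other 11 genes summed to 114.2 to 272 CPM in tumors and 117 to 241 CPM in non-tumor liver, which overlapped. Ccr2, the receptor that calls in monocytes, was at 6.25, 13.3, 7.24 and 9.48 CPM against 1.71, 14.2, 4.88 and 4.22 CPM, with animal F_F_523 highest in both tissues (log2 difference 0.71 ± 0.25, adjusted p = 0.06). No MHC class II gene of 7 was called by limma (1 at an unadjusted p below 0.05; median 0.40). H2-Aa was at 92.1, 81.6, 63.2 and 56.1 CPM against 27.5, 96.4, 55.7 and 30.9 CPM; the tumor was the higher in F_F_503, F_F_581 and F_F_595 and the lower in F_F_523, whose non-tumor library was the highest of all (log2 difference 0.62 ± 0.29, adjusted p = 0.13). When the non-tumor libraries of F_F_523 and F_F_581 were dropped, 6 MHC class II genes and 6 monocyte genes were called higher. Without animal F_F_523, 5 monocyte genes and 2 MHC class II genes were called higher.

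Lymphocyte and neutrophil markers were scarce. Only 3 of 8 neutrophil, 4 of 13 T and natural killer cell and 4 of 9 B and plasma cell genes passed the filter, and Ly6g, the neutrophil surface marker, was at 0 in all 8 libraries. Jchain, the joining chain of secreted antibodies, was the 1 called, at 66.0, 12.5, 30.6 and 7.99 CPM in tumors against 9.43, 8.01, 10.1 and 0.576 CPM (log2 difference 1.82 ± 0.33, adjusted p = 0.0056); each tumor was higher than its own non-tumor library, with overlap between the groups. Jchain lost its call in 3 alternatives, among them no block and the non-tumor libraries of F_F_523 and F_F_581 left out, where no B or plasma cell gene was called. Bile duct genes were also low: Krt19 averaged 0.439 CPM in tumors and 0.484 CPM in non-tumor liver, Krt7 0.393 and 0.659 CPM, and of 10, 3 passed the filter, among them Sox9 and Spp1. Sox9, a progenitor and bile duct factor, was not called (log2 difference 0.58 ± 0.25, adjusted p = 0.11).

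Matrix genes rose in part. Of 21 extracellular matrix genes, 11 were higher and none was lower (median 0.80). Col5a2, a fibrillar collagen chain, was at 24.3, 28.8, 37.0 and 21.2 CPM in tumors and 6.69, 10.6, 10.1 and 4.74 CPM in non-tumor liver (log2 difference 1.70 ± 0.13, adjusted p = 0.00035), and Thbs1, thrombospondin 1, at 101, 29.9, 45.0 and 41.1 CPM against 9.50, 14.2, 7.58 and 8.01 CPM (log2 difference 2.24 ± 0.32, adjusted p = 0.002). Neither overlapped. Col4a1, a basement membrane collagen, rose (0.94 ± 0.10), and Col1a1, the main scar collagen, was not called (0.87 ± 0.31). Acta2, smooth muscle actin, was at 34.1, 22.9, 44.9 and 23.0 CPM against 2.84, 2.36, 4.13 and 2.70 CPM, one of the steadiest rises across animals (log2 difference 2.97 ± 0.14, adjusted p = 0.0002). Tagln (1.51 ± 0.12) and Myh11 (1.66 ± 0.19), smooth muscle proteins, rose with it; these 3 belong to the stellate and fibroblast list, which as a whole did not move 1 way. Lrat (-1.37 ± 0.48) and Dcn (-0.85 ± 0.31), of the same list, were not called with CPM and were called lower with median-of-ratios scaling. Reln, also of that list, lay above 0 and was not called (0.82 ± 0.33). In all, 4 of 14 stellate and fibroblast genes were higher and none was lower, with 7 differences above and 7 below 0 (median 0.09). The shares over all tested genes were 19.6% higher and 15.6% lower. Without animal F_F_595, 5 were called lower, and with median-of-ratios scaling 3 were. Hgf, Pdgfra and Rgs5 were among those below 0 and not called (-0.76, -0.80 and -0.69). The list's sum was 549.5 to 999 CPM in tumors against 356 to 859 CPM.

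Endothelial genes were higher for 5 of 16 and lower for none (median 0.28), against 19.6% and 15.6% of all tested genes. Cd34 (log2 difference 1.58 ± 0.18, adjusted p = 0.00091) and Esm1, a marker of newly sprouting vessels (log2 difference 1.87 ± 0.37, adjusted p = 0.0077), rose without overlap, Cd34 from 2.05, 2.60, 7.38 and 2.69 CPM to 10.7, 11.5, 16.3 and 9.65 CPM. The sinusoidal markers Stab2 (-0.01 ± 0.15), Lyve1 (0.54 ± 0.34) and Clec4g (-0.12 ± 0.17) were not called. Pecam1, Kdr and Emcn, the other 3 called, lost the call in 5 or 6 alternatives. Without animal F_F_503, again without F_F_595, and without the block, 2 endothelial genes were called, and without F_F_523 there were 3.

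Interferon-stimulated genes were called for 6 of 21, 4 higher and 2 lower (median 0.28), a share below the 35.2% of all genes. Ifi44 was at 17.9, 32.5, 14.2 and 20.51 CPM in tumors against 5.93, 16.7, 6.46 and 5.32 CPM (log2 difference 1.29 ± 0.17, adjusted p = 0.0014), with animal F_F_523 highest in both tissues, while Irf7, a regulator of the response, was lower (log2 difference -0.51 ± 0.11, adjusted p = 0.011). Irf7 lost its call in 4 alternatives and Bst2, the other lower gene, in 6; none was called lower without animal F_F_523, without the block, or without the non-tumor libraries of F_F_523 and F_F_581. Among erythroid genes, Alas2, the first enzyme of heme synthesis in red cells, fell from 107, 79.2, 86.7 and 83.0 CPM to 19.1, 23.1, 14.3 and 20.9 CPM (log2 difference -2.15 ± 0.15, adjusted p = 0.00032); the globin Hbb-bs, at 113, 62.1, 131 and 117 CPM against 198, 328, 214 and 109 CPM, was not called (-0.95 ± 0.35). Of 5 erythroid genes tested, 2 were called lower. Without animal F_F_595, 5 were, and 1 was when any other animal was left out. Without the non-tumor libraries of F_F_523 and F_F_581, 1 was called lower too. The erythroid sum was 159.3 to 328 CPM in tumors against 351 to 861 CPM, and what share of either came from blood was not tested. Globin copies are near-identical and their single values uncertain.

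**Figure D4:**
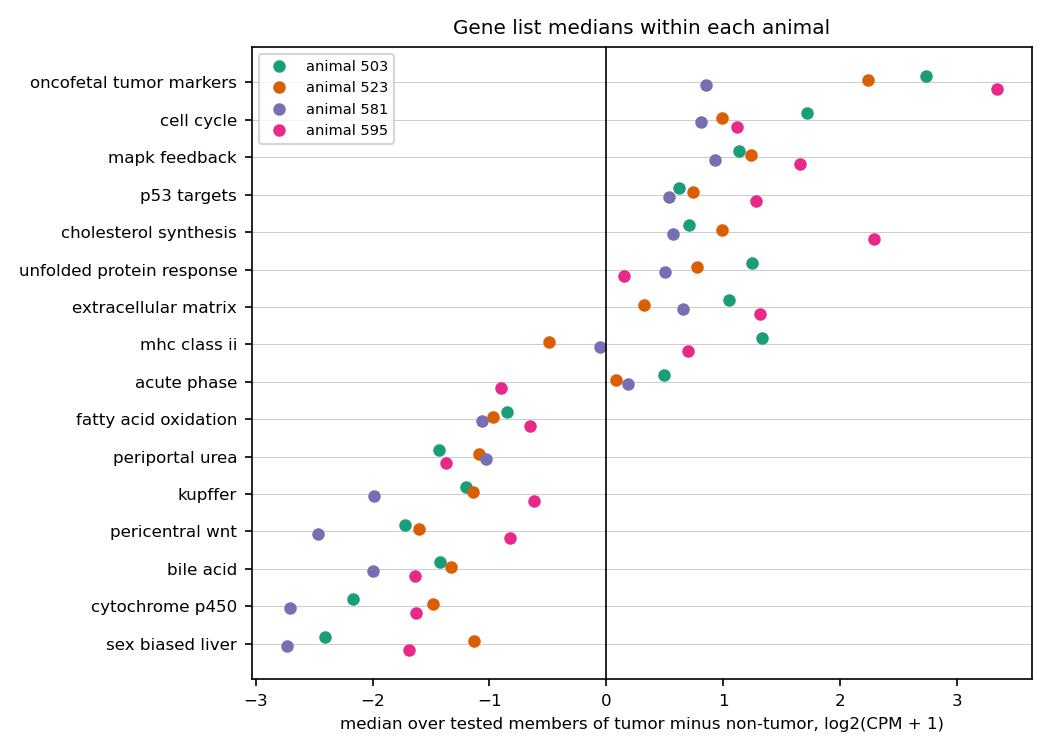
Median over the tested members of each gene list of tumor minus non-tumor in log2(CPM + 1), with 1 point per animal. Points of all 4 animals lie on the same side of 0 for every list shown except MHC class II and acute phase, and animal F_F_581 lies lowest for pericentral Wnt, Kupffer, bile acid, cytochrome P450 and sex-biased lists.

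The list medians within animals show how far the 4 pairs differed. Animal F_F_581 had the largest falls in pericentral, P450, bile acid, Kupffer and sex-biased genes, with a pericentral median of -2.47 against -1.72, -1.60 and -0.82 in F_F_503, F_F_523 and F_F_595. For oncofetal genes F_F_581 had the smallest difference, a median of 0.85 against 2.74, 2.24 and 3.34. The oncofetal sum was 1229.5 to 1824 CPM in tumors and 54.5 to 512 CPM in non-tumor liver, so relative to its size it varied more among the non-tumor libraries. Medians of the MHC class II list were 1.33, -0.49, -0.05 and 0.70 in F_F_503, F_F_523, F_F_581 and F_F_595.

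The same within-liver contrast was set beside hepatocyte Il17ra loss and beside chow. In the 4 dHEP mice on alcohol, Gpc3 differed by 2.81 ± 1.21 and Cyp2e1 by -3.02 ± 0.34. In FF mice on chow (3 tumors and 3 non-tumor livers of other animals) they differed by 5.56 ± 0.91 and -3.16 ± 0.24. The dHEP values came from a limma fit on 8 libraries with the animal as a block. The chow values came from a fit on 6 libraries without a block. Interaction values are the FF difference on alcohol minus the other difference, from fits on 16 and 14 libraries. No gene's tumor difference was called different between FF and dHEP mice on alcohol (0 of 13056, smallest adjusted p 0.68, 422 genes, 3.23%, at an unadjusted p below 0.05 where chance gives 653). No gene's difference was called different between alcohol and chow in FF mice either (0 of 13139, smallest adjusted p 0.13, 1117 genes, 8.5%, at an unadjusted p below 0.05 where chance gives 657). On simulated data with known changes in 200 genes the interaction fits found 26 to 27% of differences of 1 and 82 to 88% of differences of 2 on the log2 scale. For the diet fit the simulated data held no effects of single animals. Differences near 1 would thus mostly be missed here.

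The values of 5 genes are set side by side, chosen after they were seen; none of their interactions was called. Ass1 differed by -1.75 in FF and -0.37 ± 0.69 in dHEP mice (interaction -1.38 ± 0.81, adjusted p = 1), and Cps1 by -1.15 and -0.23 ± 0.55 (interaction -0.92 ± 0.62, adjusted p = 1). Gnmt differed by -2.82 and -1.11 ± 0.71 (interaction -1.71 ± 0.84, adjusted p = 1). Lcn2 differed by 2.72 in FF mice on alcohol, 2.88 ± 0.49 in dHEP mice on alcohol and 5.09 ± 0.69 in FF mice on chow (diet interaction -2.37 ± 0.91, adjusted p = 0.5). Cd74, the MHC class II invariant chain, differed by 0.40 on alcohol and 2.06 ± 0.25 on chow (diet interaction -1.67 ± 0.47, adjusted p = 0.35).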

How the data were processed

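RNA of tumor and non-tumor liver was sequenced in 28 libraries, of which 8 are compared here. The labels name polyadenylated RNA and also a stranded total RNA kit, so which RNA was captured is not settled. The authors' deposited values are CPM per gene, each column summing to 1000000; reads were aligned with STAR 2.5.1a and quantified with RSEM 1.3.0 on GRCm38, per the submitters' processing notes. Of 22187 gene IDs, 21653 matched a GENCODE M21 symbol of the same build. Whole reads were not recovered (84.8 to 86.8% of values up to 20 reads were within 0.1 of a whole read), so no count model was used. Depth was estimated by taking the most frequent low value of a library as 1 read, by which 1 CPM stood for 9.57 to 17.8 reads over the 28 libraries.

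CPM were transformed to log2(CPM + 1), and those genes that reached 1 CPM in 3 or more fitted libraries were tested with limma 3.58.1 (R 4.3.3), with a mean-variance trend, 2-sided, with Benjamini-Hochberg adjustment over all tested genes. The animal was a block, since the tumor and non-tumor libraries of a number come from 1 animal; deviations from the group means correlated by 0.16 to 0.36 within all 4 animals. The interaction with genotype kept that block over 16 libraries. The interaction with diet had none, since FF chow tumor and non-tumor libraries carry different animal numbers. No 2 of the 28 libraries were duplicates: the highest correlation was 0.991, between libraries of different groups. On simulated data the tissue fit recovered 70% of changes of 1 and 92% of changes of 2 on the log2 scale, and 2.41% of its calls were false.

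Genes are described in 39 lists (28 pathway, 11 cell type) of 591 genes, of which 586 had a row and 529 were tested; Hc and Ccn2 were matched by the synonyms C5 and Ctgf. The members and lists were chosen with earlier results of these data known. Genes were named by rule: the 12 largest rises and falls among calls whose higher tissue averaged 5 CPM or above and whose direction held in all 4 animals, up to 5 members of smallest p in each list, and 9 fixed genes. A few list members are not reported here. Another 22 genes, among them Glul, Cyp2e1, Cyp7a1, Sqle, Hspa5, Phgdh and Fasn, and any other list member named in the text, were chosen after their values were seen. Single genes in 4 pairs were also tested with an exact sign-flip permutation test. Alternatives were no block, a pseudocount of 0.5, no filter, an average of at least 5 CPM, median-of-ratios scaling, group means over all 28 libraries, leaving out each animal, and leaving out the non-tumor libraries of F_F_523 and F_F_581. Figures were drawn with matplotlib 3.10.9.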

Additional observations from a re-analysis of the deposited data

Results flagged for a closer look

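In 448 groups of 4 libraries, each a gene in 1 tissue, 31 had a highest or lowest value whose gap to its neighbour, as a share of the group's range, passed Dixon's critical value; about 1 in 20, or 22, would do so by chance. Of these, 11 fell to animal F_F_595, 12 to F_F_581, 5 to F_F_523 and 3 to F_F_503.

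Animal F_F_581 had the low value in tumors for hepatocyte genes: Mup12 at 1.17 CPM, Cyp27a1 at 26.4 CPM, Cyp1a2 at 4.29 CPM, Glul at 45.9 CPM, the bile acid transporters Slc10a1 at 9.92 CPM and Slco1b2 at 25.1 CPM, and the chaperone Hsp90b1 at 901 CPM. Its tumor was high for the collagen Col4a2, at 153 CPM. Its non-tumor library was high for Vmn2r3 at 0.593 CPM, where the other 3 were at 0, for Ahsg, fetuin-A, at 8623 CPM, for Psph at 6.66 CPM and for the Kupffer cell gene Timd4 at 10.7 CPM.

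The tumor of animal F_F_595 was low for the cyclin Ccnb2 at 2.66 CPM, Otc at 73 CPM, Me1 at 26.2 CPM and Trib3 at 18.4 CPM, and high for Atf4 at 128 CPM and the protease Mmp14 at 47.5 CPM. Its non-tumor library was high for Hnf4a at 922 CPM and Creld2 at 199 CPM. It was low there for Tagln at 4.69 CPM and the B and plasma cell genes Jchain at 0.576 CPM and Cd79b at 0.256 CPM.

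In animal F_F_523 the non-tumor library was high for Cd24a at 3 CPM, Ifi44 at 16.7 CPM, Folr2 at 18.8 CPM and Ly6c2 at 1.11 CPM, and the tumor was high for Traf3ip2, an adaptor of the interleukin 17 receptor, at 3.3 CPM. In animal F_F_503 the tumor was low for Tspan8 at 37.9 CPM and high for Trp53inp1 at 452 CPM, and the non-tumor library was high for Otc at 437 CPM.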

How the results depend on the processing

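With no replicate block, 1888 genes were higher and 1575 lower, against 2490 and 1986 with it. Leaving out 1 animal at a time gave 1547 to 2133 higher and 1465 to 1861 lower genes, the 1547 without animal F_F_503. Leaving out the non-tumor libraries of F_F_523 and F_F_581 gave 891 lower genes, 107 lower list members, and an Afp difference of 5.45 against 2.83, which was then called; these 2 libraries had been doubted for their tumor markers, Afp among them. That fit has fewer samples and no block. The diet interaction, 0 genes in all 14 libraries, ranged over 0 to 6 when 1 animal was left out (6 without F_F_168, 3 without F_F_595).

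Of 187 named genes that were called, 136 kept call and direction in every alternative where they were tested. Genes that changed direction were not called in the full comparison. Leaving out 1 animal at a time moved Il17rc over -0.01 to 0.27, S100a9 over -0.56 to 0.03, Csf3r over -0.24 to 0.20, Cd79a over -0.17 to 0.38 and Fasn over -0.42 to 0.76. Without the non-tumor libraries of F_F_523 and F_F_581, Traf3ip2 (0.04), Csf3r (0.29) and Creld2 (-0.07) changed sign. The cause was not tested. A pseudocount of 0.5 changed no call of the 224 named genes. Values below 1 CPM rest on fewer than 16 reads.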
